A study of Mus musculus with 16 samples.

Results

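The genes followed here are 10 genes of the integrated stress response in mouse liver: Atf4, Atf5, Ddit3, Trib3, Asns, Slc3a2, Chac1, Sesn2, Ddit4 and Fgf21. They were taken by symbol from a table of 57010 genes measured by poly(A) RNA-seq. Each symbol had 1 row with signal, and a second row for Ddit3 (ENSMUSG00000116429), whose locus overlaps Ddit3 on chromosome 10, was at 0 in all 16 libraries and was not used. The livers came from wild-type male C57BL/6J mice in 4 groups of 4. The methods of the study give an age of 8 to 12 weeks without naming the step it refers to. A figure legend of the study puts the mice at 8 weeks when the 3-month SeMet diet began. Collection came at the end of the treatment, and the age at that point is not stated. The control group (mice 27 to 30) received neither agent. The Cd group (mice 1, 2, 5 and 6) received CdCl2 at 1.25 mg/kg by intraperitoneal injection on each of 7 days. The Se group (mice 39, 40, 41 and 44) was fed selenomethionine (SeMet) at 2 ppm for 3 months, and the Cd+Se group (mice 13 to 16) had the same diet with the injections in its last 7 days. The labels name neither a vehicle injection nor a base diet for the control mice, and each library is 1 mouse. Levels are in TPM, the share of a gene in a library's transcripts after division by transcript length, so that different genes can be set side by side. TPM keep no read number, and the depth of the libraries is unknown.

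The integrated stress response starts when a kinase such as PERK, GCN2, PKR or HRI phosphorylates the initiation factor eIF2. General translation then slows while the mRNA of the transcription factor ATF4 is translated more, so ATF4 is set largely at the protein level, which RNA-seq does not measure. ATF4 pairs with C/EBP proteins and acts on genes for amino acid supply (Asns, Slc3a2), on the related factor Atf5, on Ddit3, which encodes the factor CHOP, and on Trib3, a pseudokinase that damps ATF4 and CHOP. Chac1 degrades glutathione, Sesn2 and Ddit4 restrain mTORC1, and Fgf21 is a hormone that the liver secretes.

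ATF4 and C/EBP proteins bind a composite element of which TGATGNAA is the core. The RefSeq promoter windows of the 10 genes (GRCm38.p6, 250 bases before to 50 after each start, 11 windows because Atf5 has a pair of them) were searched for TGATGNAA and its reverse complement TTNCATCA. The core was found in 4 genes, Asns, Chac1, Fgf21 and Trib3, and it occurs in 4.51% of the 27025 genes with a window. The stretches around the matches are shown because these are the only windows of the 10 genes that hold the core. Each has 30 bases on the strand of its gene, written 5′ to 3′ with the match in capitals:
Asns: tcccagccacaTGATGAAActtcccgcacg
Chac1: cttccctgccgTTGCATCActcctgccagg
Fgf21: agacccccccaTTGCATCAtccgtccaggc
Trib3: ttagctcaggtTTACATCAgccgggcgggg
The Asns stretch lies at chr6:7693214-7693243 on the minus strand, with the match starting 23 bases before the RefSeq start. The Chac1 stretch lies at chr2:119351038-119351067 on the plus strand and the match starts 193 bases before the start. In Fgf21 (chr7:45615611-45615640, minus strand) this distance is 139 bases. In Trib3 (chr2:152344028-152344057, minus strand) the match begins 14 bases after the RefSeq start. A match describes letters only, and the windows of Atf4, Atf5, Ddit3, Ddit4, Sesn2 and Slc3a2 did not hold these letters. For Slc3a2 and Trib3, no transcript of the GENCODE M21 annotation held the bases right after the RefSeq start. The Slc3a2 window (chr19:8713848-8714147) lies inside the GENCODE gene, which starts at 8723369 on the minus strand. The Trib3 match lies before the GENCODE start of that gene (152344032). The Asns stretch lies inside the GENCODE gene, which starts at 7693254 on the minus strand. Its match is thus before the RefSeq start but not before the GENCODE start.

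Several measures of the whole series bear on the values below. Mt1 and Mt2, which encode metallothioneins that take up Cd, served as a check of the labels, and each was higher in each of the 8 mice injected with Cd than in any of the 8 other mice. The lowest Mt1 level in the Cd group was 3178 TPM and the highest in the control group was 221 TPM. Over the 11766 genes tested, the median change on the log2 scale was -0.17 in Cd against control and 0.17 in Cd+Se against Cd. Across genes, the difference of a library's level from the gene's mean over the 16 libraries was correlated with transcript length by rank. This value lay between -0.18 and -0.12 in Cd libraries and between 0.01 and 0.21 in the other libraries. It is relative to the other libraries and is not a correlation of the level itself. Of 6 listed hepatocyte markers 5 were found by the symbol listed, all but Tf, and none of the 5 was at 0. Whether Tf is in the table under another symbol was not looked up. The 5 summed to 37460 to 63510 TPM in Cd mice, where 1 of the 5 fell, and to 57460 to 79740 TPM in control mice. All 5 Kupffer cell markers fell in Cd against control, with sums of 30.7 to 51.9 TPM in Cd mice and 96.9 to 118 TPM in control mice. Of 4 tested neutrophil markers, 3 rose (sums of 32.8 to 41.7 TPM and of 6.67 to 16.8 TPM). In Cd+Se mice these sums were 26.4 to 59.4 TPM for Kupffer cells and 46.5 to 77.2 TPM for neutrophils. Of markers of sinusoidal endothelial cells, 2 of 5 fell in Cd against control (sums of 33.6 to 50.4 TPM and of 53.3 to 64.2 TPM), and of stellate cells 1 of 4 tested fell (sums of 76.4 to 124 TPM and of 90.7 to 135 TPM). Of monocyte-derived macrophage markers 2 of 4 tested rose, with sums of 38.9 to 58.1 TPM in Cd mice, 43.8 to 61.1 TPM in control mice and 70.3 to 118 TPM in Cd+Se mice. Of all genes tested, 24.9% were called lower and 5.82% higher in Cd against control. The falls of 1 of 5 hepatocyte and 1 of 4 stellate cell markers were near that share of falls. Among the libraries, Cd mouse 5 had the lowest median level on the log2 scale (2.68, the others 2.90 to 3.36) and Se mouse 40 the highest (3.36, the others at most 3.20). In bulk liver, fewer cells of a type and less RNA per cell cannot be told apart, and the part of these shifts in the results on the 10 genes was not tested.

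The first comparison asks what Cd did to these genes in mice on a diet without added Se. The factors Ddit3 and Atf4 and the feedback gene Trib3 rose in Cd against control, and none of the 10 genes fell. In all, 3 of the 10 rose at a limma adjusted p under 0.05, where 5.82% of all genes tested were called higher and 24.9% lower. The median log2 fold change of the 10 genes was 0.56. Without regard to the test, the Cd mice lay wholly above the control mice in 5 genes (Atf4, Atf5, Ddit3, Trib3 and Sesn2) and wholly below them in 1 (Slc3a2), where 6.44% and 27.8% of all genes did so.

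**Figure D1:**
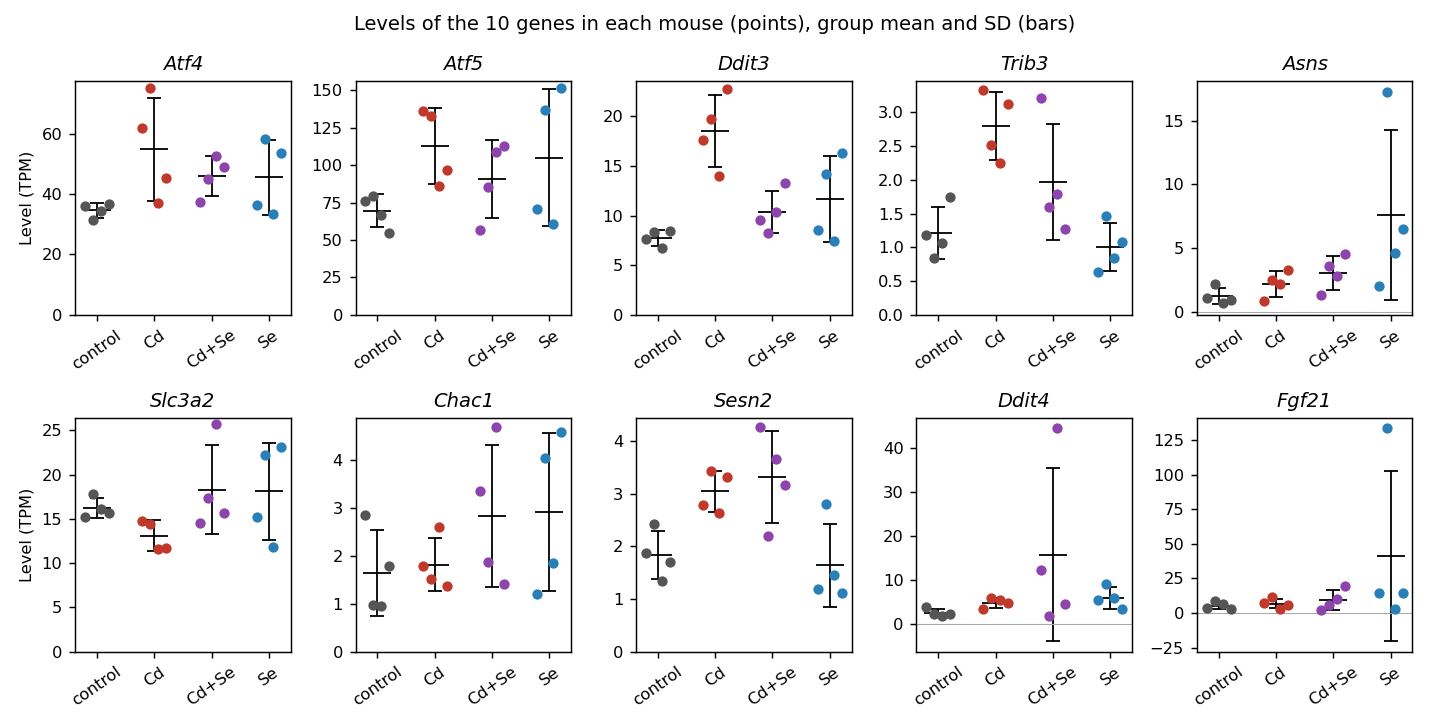
Level in TPM (vertical axes, linear) of each of the 10 genes in each of the 16 mice, with the mean and SD of the 4 mice per group as bars. Ddit3 in Cd mice lay between 14.03 and 22.74 TPM, above all control and Cd+Se mice, while Asns and Fgf21 were highest in Se mouse 40.

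Ddit3 was at 7.67, 8.34, 6.70 and 8.44 TPM in control mice 27 to 30 and at 17.65, 19.69, 14.03 and 22.74 TPM in Cd mice 1, 2, 5 and 6. The groups did not overlap, and the lowest Cd mouse lay well above the highest control mouse. The means were 7.79 ± 0.802 TPM (SD, n = 4) and 18.5 ± 3.66 TPM. The log2 fold change on the log2(TPM + 1) scale was 1.14 (SE, standard error, 0.21, limma adjusted p = 0.00138). When each of the 16 mice was left out in turn, it ran from 1.04 to 1.26 (adjusted p 0.00101 to 0.00645). This was the largest change among the 10 genes in this comparison, and the call held under each scaling tried.

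Atf4 was much more abundant, at 36.05, 31.31, 34.27 and 36.74 TPM in control mice and 61.79, 75.16, 37.13 and 45.14 TPM in Cd mice. Cd mouse 5 lay just above the highest control mouse, and Cd mouse 2 was higher by far. The group means were 34.6 ± 2.42 TPM and 54.8 ± 17.0 TPM (SD, n = 4), with a log2 fold change of 0.60 (SE 0.21, limma adjusted p = 0.0380). The call rested on single mice: the adjusted p became 0.0891 without Cd mouse 1, 0.120 without Cd mouse 2, and 0.0615, 0.0928, 0.0774 and 0.0564 without control mice 27, 28, 29 and 30. With no filter on low values it was 0.0931.

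Atf5, the most abundant of the 10 genes, was at 76.26, 79.67, 66.82 and 55.02 TPM in control mice and 136.01, 132.74, 86.24 and 96.50 TPM in Cd mice. The ranges did not overlap, and Cd mice 1 and 2 were the highest, as they were for Atf4. Its log2 fold change of 0.68 (SE 0.28) did not pass the threshold (limma adjusted p = 0.0781).

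Trib3 was low, at 1.18, 0.85, 1.06 and 1.75 TPM in control mice and 3.33, 2.52, 2.25 and 3.12 TPM in Cd mice. All Cd mice were higher than all control mice, and the means were 1.21 ± 0.385 TPM and 2.81 ± 0.505 TPM (SD, n = 4). The log2 fold change was 0.79 (SE 0.19, limma adjusted p = 0.00666), a value that the added 1 TPM makes smaller than the 2.32-fold ratio of the means. Leaving out 1 mouse raised the adjusted p to 0.0249 at most.

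Among the targets that act on mTORC1, Sesn2 was at 1.88, 2.42, 1.34 and 1.70 TPM in control mice and 2.79, 3.43, 2.64 and 3.32 TPM in Cd mice. The ranges were apart, and the log2 fold change of 0.52 (SE 0.19) lay next to the threshold (limma adjusted p = 0.0509). It crossed the threshold without control mouse 28 (0.0426), Se mouse 40 (0.0209), Cd+Se mouse 13 (0.0463) or Cd+Se mouse 14 (0.0403). Ddit4 was at 3.95, 2.23, 1.87 and 2.16 TPM in control mice and 3.28, 5.93, 5.43 and 4.67 TPM in Cd mice, which overlap through control mouse 27 and Cd mouse 1. Its log2 fold change was 0.72 with a 95% interval of -0.50 to 1.95 (limma adjusted p = 0.360).

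The genes of amino acid supply and glutathione did not pass the test. Slc3a2, the heavy chain that carries several amino acid transporters to the cell surface, was at 15.20, 17.77, 16.16 and 15.61 TPM in control mice and 14.80, 14.39, 11.56 and 11.66 TPM in Cd mice. It was the one gene of the 10 in which the Cd mice were wholly lower. Its log2 fold change was -0.29 (95% interval -0.71 to 0.12, limma adjusted p = 0.274). Asns, which makes asparagine, had levels of 0.70 to 2.17 TPM in control mice and 0.84 to 3.28 TPM in Cd mice, with a log2 fold change of 0.50 (95% interval -0.40 to 1.41, limma adjusted p = 0.393). Chac1 lay at 0.96 to 2.86 TPM and at 1.37 to 2.60 TPM, with a log2 fold change of 0.13 (95% interval -0.55 to 0.81). The hormone gene Fgf21 lay at 2.80 to 8.78 TPM and at 2.97 to 11.51 TPM, with a log2 fold change of 0.29 (95% interval -1.35 to 1.93). For the last 3 genes the groups overlapped, and the intervals are wide enough to hold both no change and a change above that of Atf4.

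**Figure D2:**
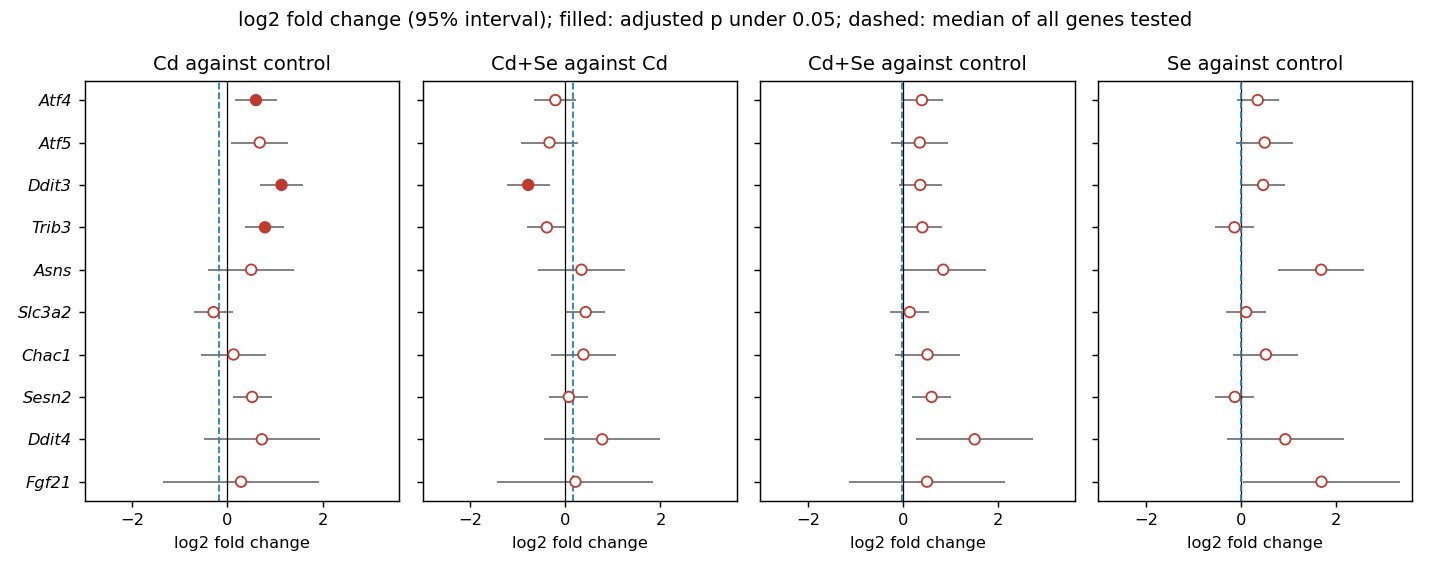
The log2 fold change on the log2(TPM + 1) scale (horizontal axes) with its 95% interval for the 10 genes in 4 comparisons. Filled points passed an adjusted p of 0.05, namely Atf4, Ddit3 and Trib3 in Cd against control and Ddit3 in Cd+Se against Cd, and the dashed line marks the median of all genes tested.

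Cd mouse 5, whose library had the lowest median, was the lowest Cd mouse for 7 of the 10 genes. Without it Atf4 (log2 fold change 0.77), Ddit3 (1.26) and Trib3 (0.86) still passed the test. Transcript length was taken as the median over all annotated transcripts of a gene, whichever of them the liver expressed. For the 10 genes it ran from 568 bases (Asns) to 3475 bases (Sesn2), beside a median of 1258 bases over all genes tested. After a correction of each library for transcript length and GC content, 5 of the 10 genes rose, which were Atf4 (adjusted p = 0.00251), Atf5 (0.0247), Ddit3 (0.000329), Trib3 (0.00293) and Sesn2 (0.00542). The same 5 genes rose under quantile normalization, and also when each library was centred on its median. The share of all genes tested that were called higher also grew under these scalings, to 14.4% with the length and GC correction, 14.5% with quantile normalization and 19.2% with centring. The sign of the 10 fold changes was the same under each of these scalings, Slc3a2 staying negative.

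**Figure D3:**
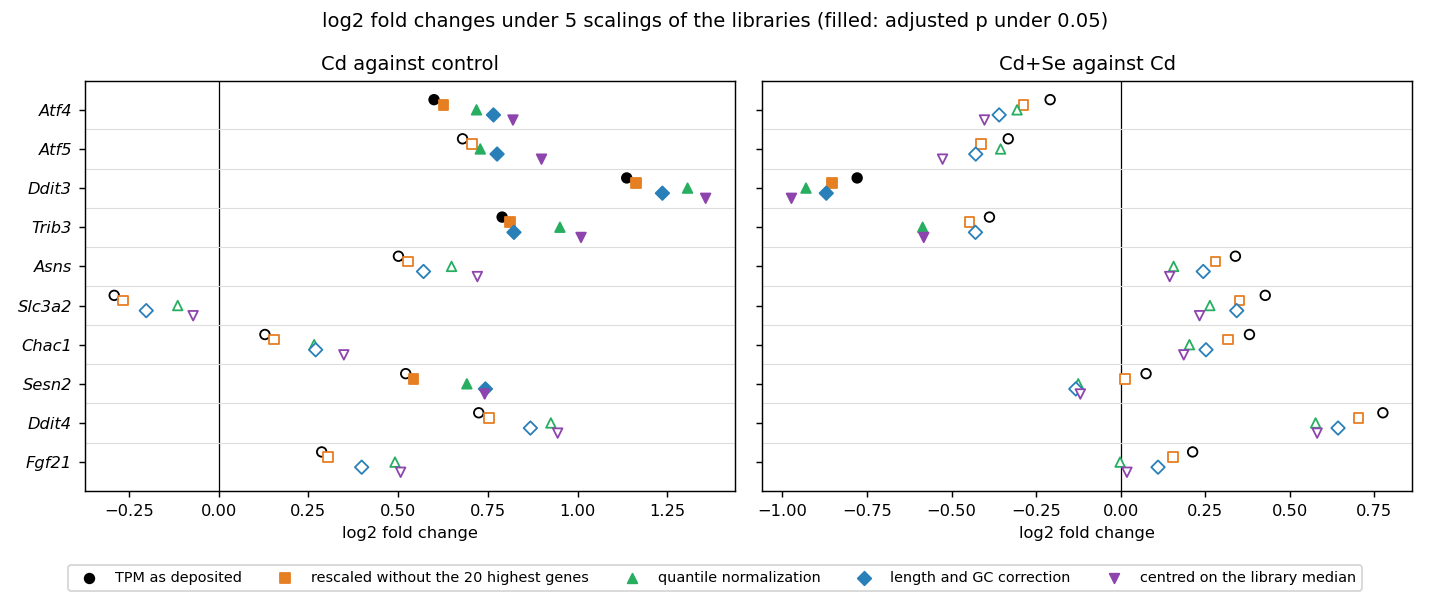
The log2 fold changes (horizontal axes) of the 10 genes in Cd against control and Cd+Se against Cd under 5 scalings of the libraries. Filled symbols passed an adjusted p of 0.05. In Cd against control the values for Atf4 ran from 0.60 with TPM as deposited to 0.82 after centring.

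The second comparison asks whether the genes differed between Cd mice fed SeMet and Cd mice on a diet without it. Ddit3 was lower in Cd+Se mice, and it was the only one of the 10 genes that passed the test, with 2.35% of all genes tested called lower and 13.6% higher. The median log2 fold change of the 10 genes was 0.14. Ddit3 was at 9.59, 8.24, 10.34 and 13.31 TPM in Cd+Se mice 13 to 16, and the highest of these was below the lowest Cd mouse. Of all genes tested, 3.11% were wholly lower and 16.1% wholly higher in Cd+Se mice, while among the 10 genes Ddit3 was wholly lower and 0 were wholly higher. The mean of Ddit3 was 10.4 ± 2.14 TPM (SD, n = 4), and the log2 fold change was -0.78 (SE 0.21, limma adjusted p = 0.0244). The call was lost without Cd mouse 6 (adjusted p = 0.0626) or Cd+Se mouse 14 (0.0769), with no filter on low values (0.0615) and in a model with these 2 groups alone (0.0665). The Cd mice are shared with the first comparison, so a high level in these 4 mice by itself gives a rise in the first and a fall in the second.

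For Atf4, Atf5 and Trib3 the Cd+Se mice overlapped the Cd mice. Atf4 was at 37.30, 44.92, 52.68 and 49.01 TPM in Cd+Se mice, within the range of the Cd mice. All lay above the control mice, the lowest only just (37.30 TPM beside 36.74 TPM in the highest control mouse). The difference from control did not pass the test (limma adjusted p = 0.520). The share of all genes wholly above control in Cd+Se mice is not given here. From Cd mice, the log2 fold change of Atf4 was -0.21 (95% interval -0.65 to 0.23, limma adjusted p = 0.511). That value was -0.04 without Cd mouse 2 and -0.37 without Cd mouse 5. Atf5 was at 56.42, 85.26, 109.05 and 112.81 TPM, which spans levels of both control and Cd mice (log2 fold change -0.33, 95% interval -0.93 to 0.27). Trib3 was at 3.21, 1.60, 1.79 and 1.28 TPM. Cd+Se mouse 13 was level with the Cd mice, and the other 3 were below all Cd mice. The log2 fold change of Trib3 was -0.39 (95% interval -0.80 to 0.02, limma adjusted p = 0.172), and without Cd+Se mouse 13 it was -0.57 (0.0393). It passed the test after quantile normalization (0.0403) and after centring (0.0401). Under centring the share of all genes tested that were called lower also grew, from 2.35% to 10.8%.

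Of the 6 other genes 0 passed the limma test, and 1, Slc3a2, had an unadjusted p under 0.05. Sesn2 was at 4.27, 2.19, 3.65 and 3.16 TPM in Cd+Se mice, with a log2 fold change against Cd of 0.08 (95% interval -0.33 to 0.48), and its sign turned under quantile normalization, centring and the length and GC correction. Slc3a2 was at 14.51, 17.35, 25.70 and 15.65 TPM, with Cd+Se mouse 15 apart from the rest, and differed from Cd mice by a log2 fold change of 0.43 (limma adjusted p = 0.140). Ddit4 was at 12.19, 1.76, 44.45 and 4.61 TPM, again with mouse 15 highest. Its log2 fold change of 0.78 against Cd (95% interval -0.45 to 2.00) became 0.04 without mouse 15. Mouse 15 was among the 2 highest Cd+Se mice for 9 of the 10 genes, and the share of all genes for which it was so is not given here. Chosen after its values were seen, the amino acid transporter gene Slc38a2 was at 138.31 TPM in mouse 15 and at 42.76 to 64.46 TPM in the other Cd+Se mice, and Herpud1, a gene of protein degradation at the endoplasmic reticulum, was at 553.92 TPM and at 164.32 to 305.29 TPM. Other pathway genes went the other way, such as Xbp1 (67.01 TPM) and Nupr1 (3.05 TPM), which were lowest in mouse 15 among the Cd+Se mice. Asns lay at 1.34 to 4.51 TPM, Chac1 at 1.41 to 4.69 TPM and Fgf21 at 2.43 to 19.41 TPM in Cd+Se mice, and each overlapped the Cd mice.

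Against control mice, 0 of the 10 genes passed the limma test in Cd+Se mice, where 0.314% of all genes tested were called higher and 0.17% lower. All 10 log2 fold changes were positive, with a median of 0.45 beside -0.02 over all genes tested. The share of all genes with a positive change is not given here. The control mice are shared with Cd against control and Se against control, so a low level in them by itself gives a rise in each. Of the 10 genes, 2 had an unadjusted p under 0.05. One was Sesn2, with a log2 fold change of 0.60 (limma adjusted p = 0.240). The other was Ddit4, with a log2 fold change of 1.5 (limma adjusted p = 0.339). For Ddit4 the value without Cd+Se mouse 15 was 0.76. For Ddit3 the difference from control was 0.36 with a 95% interval of -0.09 to 0.81, so a remaining rise of the size seen for Atf4 in Cd mice is inside it.

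Se alone was compared with control to see what the diet did without Cd. None of the 10 genes passed the limma test (0 of 10), with 0% of all genes tested called, and 3 had an unadjusted p under 0.05. The levels were split within the Se group. Asns was at 2.00, 17.30, 4.62 and 6.46 TPM in Se mice 39, 40, 41 and 44, beside at most 2.17 TPM in control mice. Its log2 fold change was 1.68 (SE 0.43, limma adjusted p = 0.770), and it was 0.93 without mice 40 and 44. Fgf21 was at 14.60, 133.32, 3.19 and 14.43 TPM, with a log2 fold change of 1.69 (adjusted p = 1.0) that became 0.75 without mouse 40 and 0.44 without mice 40 and 44.

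Mouse 40, whose library had the highest median level, was the highest Se mouse for 6 of the 10 genes and mouse 44 for the other 4. The part of that library's median in this split was not tested. Atf4 was at 58.25 and 53.63 TPM in these mice and at 36.40 and 33.52 TPM in mice 39 and 41, which are within the range of the control mice. Atf5 was at 137.05 and 151.40 TPM against 70.53 and 60.98 TPM. Ddit3 was at 14.23 and 16.34 TPM against 8.54 and 7.41 TPM. Chac1 (4.05 and 4.58 TPM against 1.20 and 1.85 TPM) and Slc3a2 (22.23 and 23.10 TPM against 15.18 and 11.84 TPM) were split alike. For Atf4, Atf5 and Ddit3 mice 40 and 44 thus had levels within or above those of the Cd mice. Trib3 was at 0.63 to 1.47 TPM in Se mice, with mouse 40 the highest and below all Cd mice, and Sesn2 was at 2.80 TPM in mouse 40 and at 1.12 to 1.45 TPM in the others. Ddit4 lay at 3.29 to 9.18 TPM.

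Genes of serine synthesis, named after their values were seen, were split the same way. Phgdh, its first enzyme, was at 7.73 and 3.44 TPM in Se mice 40 and 44, at 0.92 and 0.53 TPM in mice 39 and 41 and at most at 0.71 TPM in control mice. Psat1, the next enzyme, was at 5.37 and 4.62 TPM in mice 40 and 44 and at 1.19 and 0.71 TPM in mice 39 and 41. The stress-induced cofactor gene Nupr1 was at 12.10 and 9.23 TPM and at 2.04 and 2.97 TPM. In these mice Mt1 was at 431.03 and 214.79 TPM, below each mouse injected with Cd.

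**Figure D4:**
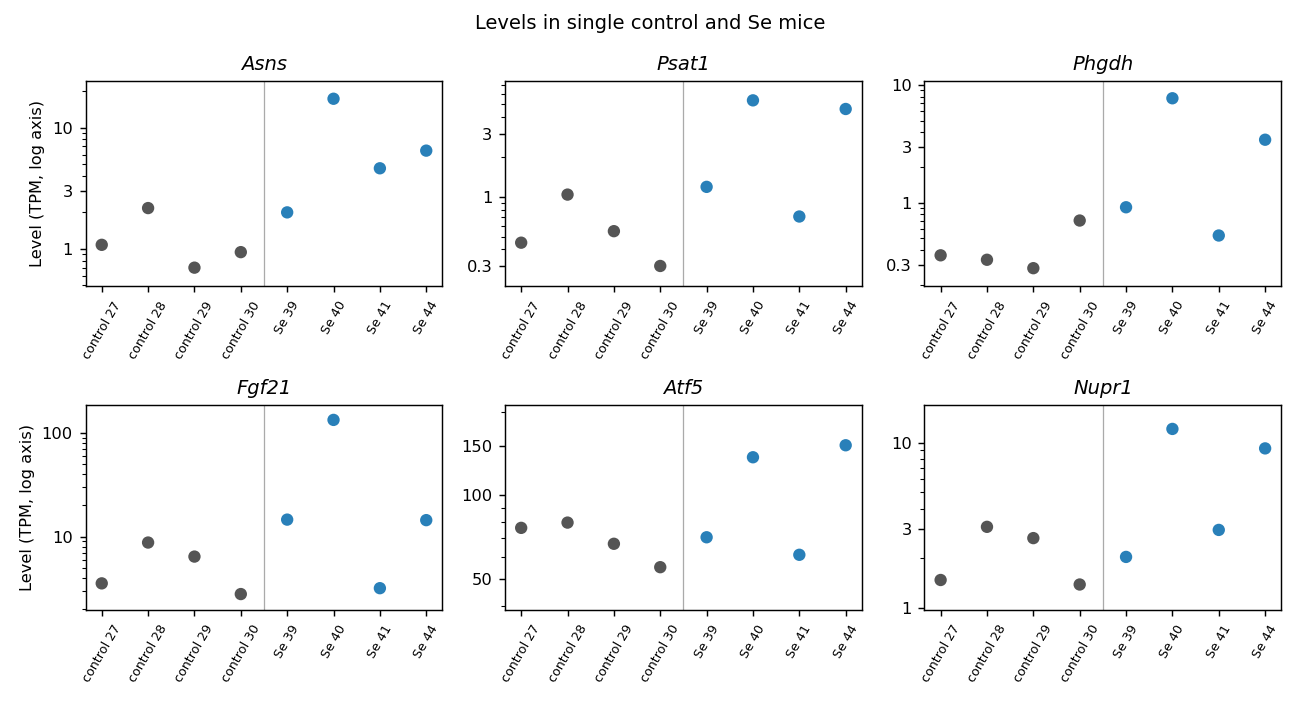
Levels in TPM (log axes) of 6 genes in each control mouse (grey) and each Se mouse (blue). Se mice 40 and 44 were above all control mice for each of the 6 genes, with Fgf21 at 133.32 TPM in mouse 40.

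Cd+Se was compared with Se to give the effect of Cd on the SeMet diet, and 0 of the 10 genes passed the limma test, with 0.544% of all genes tested called higher and 0.17% lower. Trib3 (log2 fold change 0.54, adjusted p = 0.287) and Sesn2 (0.73, adjusted p = 0.115) had an unadjusted p under 0.05, and Sesn2 passed the test without Se mouse 40 (adjusted p = 0.0246). Atf4, Atf5 and Ddit3 had log2 fold changes of 0.04, -0.15 and -0.10, and without Se mice 40 and 44 they were 0.38, 0.41 and 0.33.

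The interaction of Cd and Se tests directly whether the effect of Cd differed between the diets. Again 0 of the 10 genes passed the limma test, with 1.04% of all genes tested called, and 2 had an unadjusted p under 0.05. Ddit3 was nearest, with a value of -1.24 on the log2 scale (95% interval -1.88 to -0.60, adjusted p = 0.0541). It passed the test with quantile normalization (0.0145), centring (0.0121), the rescaling without the 20 highest genes (0.0240), the length and GC correction (0.0180) and a mean of at least 5 TPM (0.0481). It was -0.81 without Se mice 40 and 44 (adjusted p = 0.0978), and the adjusted p was 0.124 with no filter on low values and 0.0501 to 0.123 with 1 mouse left out. Asns had an interaction of -1.34 (adjusted p = 0.214), which was -0.87 without Se mouse 40 and -0.59 without Se mice 40 and 44. The interaction of Sesn2 was 0.21 with a 95% interval of -0.37 to 0.79.

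The order of the group means differed by gene. Atf4, Atf5, Ddit3 and Trib3 were highest in the Cd group. Asns, Chac1 and Fgf21 were highest in the Se group, and Sesn2, Slc3a2 and Ddit4 in the Cd+Se group. Neighbours in these orders overlapped between mice, with 2 exceptions, which were Cd above control for Sesn2 and control above Cd for Slc3a2. The spread within groups was smallest for Slc3a2 and Atf4 in control mice, with coefficients of variation of 6.97% and 7.0%, and largest for Fgf21 in Se mice at 149%.

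Across the 16 mice, the likeness of the 10 genes to each other is a description, since the mice share groups and libraries. Over the 45 pairs, Pearson's r of log2(TPM + 1) had a median of 0.33 and ran from -0.28 to 0.86. After each group's mean was taken off, 42 pairs were positive, from -0.10 (Atf5 and Trib3) to 0.83 (Atf5 and Slc3a2) with a median of 0.36. The same was not computed for pairs of other genes, and library medians differed within groups. Whether the 10 genes were more alike than other genes was thus not tested. Atf4 was most like Atf5 (r = 0.86) and Ddit3 (r = 0.75) among the 10, and least like Ddit4 (r = 0.28). Ranked by this likeness among all genes tested, with Atf4 itself first, Atf5 was at 19, Ddit3 at 230 and Ddit4 at 4010. Among all protein-coding genes tested, the 5 whose levels were most like those of Atf4 over the 16 mice were Hacd2 (r = 0.92), BC004004 (0.91), Cib1 (0.89), Pnpla6 (0.88) and Oser1 (0.88).

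The other genes of the pathway were taken from 9 lists with 76 genes, of which 64 were tested. In Cd against control, 7 of them rose and 17 fell, or 10.9% and 26.6%, beside 5.82% and 24.9% of all genes tested, so the share of falls was near that of all genes. The median log2 fold change was -0.04 beside -0.17 over all genes tested. With libraries centred on their medians 17 rose and 12 fell (26.6% and 18.8%, beside 19.2% and 15.3% of all genes), so the balance of rises and falls depends on the scaling. Of the 17 falls, 10 were in the lists that act upstream of ATF4. Of 8 genes for subunits of eIF2 and of its exchange factor eIF2B, 6 fell and 0 rose with TPM as deposited, and 5 fell under centring and quantile normalization. Eif2b4 was at 22.13 to 25.87 TPM in control mice and at 8.70 to 11.82 TPM in Cd mice, a log2 fold change of -1.08 (SE 0.19, limma adjusted p = 0.00110). Eif2b1 (log2 fold change -0.81) and Eif2b2 (-0.81) fell too. These 3 calls held with each mouse left out and in every setting, except that Eif2b1 and Eif2b2 were below a further threshold of 1 on the log2 fold change. Of 6 genes for eIF2 kinases and mitochondrial sensors, 3 fell, namely Eif2ak2, which encodes PKR (-0.89), Eif2ak1, which encodes HRI (-0.53), and Oma1 (-0.45), the last of which was lost under centring and quantile normalization. Under both of these and under the rescaling without the 20 highest genes 1 of the 6 rose, Eif2ak3, which encodes PERK and is named after its values were seen. With TPM as deposited its mean was 3.01 TPM in the control group and 4.35 TPM in the Cd group (log2 fold change 0.45, limma adjusted p = 0.0578). Of the 2 genes for regulators of the eIF2 phosphatase, Ppp1r15b fell (-0.49), a call lost after the length and GC correction.

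Partners and targets moved in both directions. Gdf15, a stress hormone, rose from 1.70 ± 0.963 TPM to 7.35 ± 4.76 TPM (SD, n = 4), with a log2 fold change of 1.53 (SE 0.39, limma adjusted p = 0.00874). It was 1 of 2 genes that rose among 9 tested in the list of further ATF4 or CHOP targets, the other being Bbc3, a promoter of cell death (0.68, adjusted p = 0.0495, with adjusted p up to 0.149 when 1 mouse was left out). Also in that list 2 fell, Gadd45a, a growth arrest gene (-0.99), and Ero1a, an oxidase of the endoplasmic reticulum (-0.66). In this list 5 of 9 rose under quantile normalization and under centring, and 4 under the rescaling without the 20 highest genes, with 2 falls in each. Of all genes tested, 14.5% were called higher under quantile normalization and 19.2% under centring. For the rescaling this share is not given here. Nupr1 rose by 1.25 and was the 1 called of 4 tested partners of the transcription factors. Slc1a5, a glutamine carrier, rose by 0.75 and was the 1 called of 4 tested transporters. Of 7 enzymes of amino acid and one-carbon metabolism 0 passed the limma test and 2 had an unadjusted p under 0.05, while 1 rose under centring and 1 fell under quantile normalization.

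Of 12 tested aminoacyl-tRNA synthetases, several of which are ATF4 targets, Cars rose (0.78) and 3 fell, among them Iars (-0.82) and Eprs (-0.66). These shares, 8.33% and 25.0%, were near those of all genes tested, and under centring 3 rose and 2 fell. Of 12 genes in other arms of the unfolded protein response, 2 rose and 2 fell. Sdf2l1, a chaperone partner, rose from 9.17 ± 0.952 TPM to 20.7 ± 4.30 TPM (log2 fold change 1.08, limma adjusted p = 0.00286), and Xbp1 (-0.79) and Atf6 (-0.64), the factors of those arms, fell. Under centring 5 of the 12 rose and 0 fell. Some of these calls rested on single mice. Leaving out 1 mouse at a time ended them for Nupr1 (without control mice 27 or 30 or Cd mouse 2, adjusted p up to 0.0714), Slc1a5 (control 29 or 30, Cd 1 or 2, up to 0.0938), Cars (control 28, 29 or 30, Cd 2 or 5, up to 0.0756), Gadd45a (control 29 or Cd 5, up to 0.0545) and Xbp1 (control 27 or Cd 5, up to 0.0735). The call for Atf6 was lost without control mice 27, 28 or 29 or Cd mice 5 or 6 (up to 0.126), and that for Bbc3 without any 1 of 10 mice, of all 4 groups (up to 0.149).

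**Figure D5:**
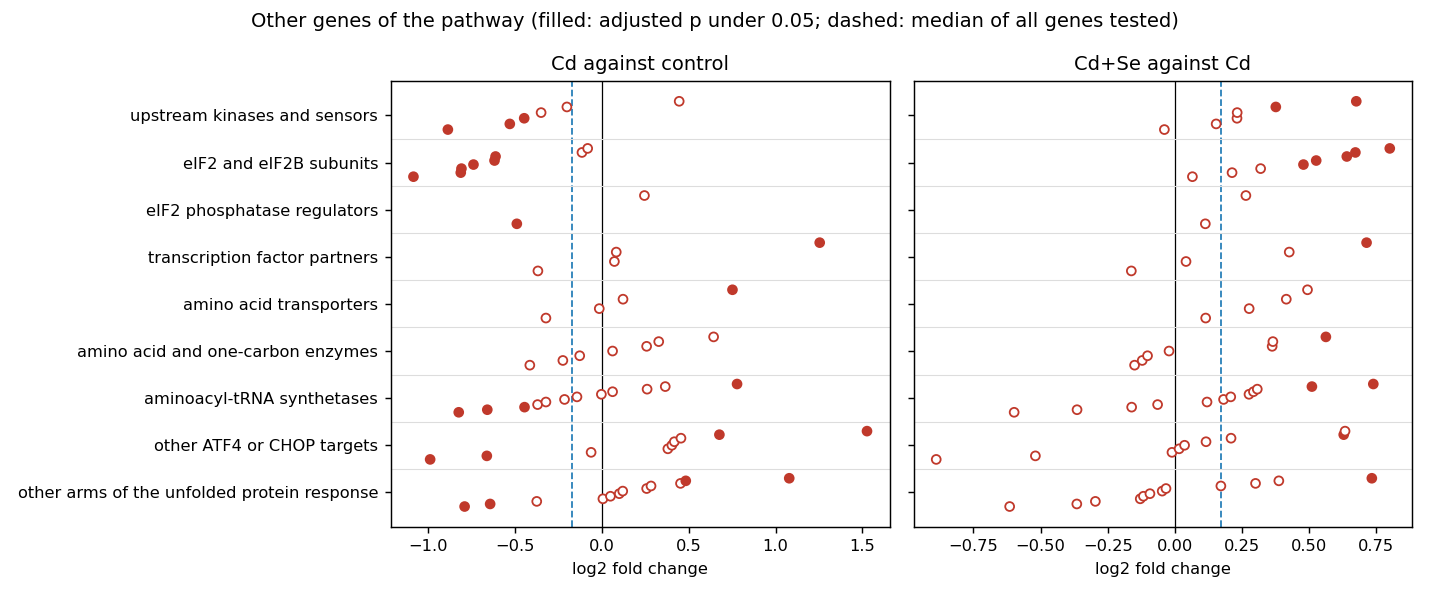
The log2 fold changes (horizontal axes) of the 64 tested genes of 9 lists, 1 point per gene, in Cd against control and Cd+Se against Cd. Filled points passed an adjusted p of 0.05. In Cd against control 6 of the 8 genes for eIF2 and eIF2B subunits lay to the left as filled points, and the dashed line marks the median of all genes tested.

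In Cd+Se against Cd, 13 of the 64 genes rose and 0 fell (20.3% and 0%, beside 13.6% and 2.35% of all genes tested). After centring 8 rose and 6 fell (12.5% and 9.38%, beside 7.96% and 10.8%). With TPM as deposited the eIF2 and eIF2B list again held the most calls, with 5 of 8 higher in Cd+Se mice. Under quantile normalization and under centring 3 of the 8 were called higher. It did not hold the most calls under centring, where 4 aminoacyl-tRNA synthetases were called. The Cd mice are shared with Cd against control, so a low level in them by itself gives a fall there and a rise here. Eif2s1, the subunit that carries the phosphorylation site, was at 9.80 TPM on average in Cd mice and at 16.2 TPM in Cd+Se mice (log2 fold change 0.67, limma adjusted p = 0.00635), and this call held with each mouse left out and in each setting but the further threshold of 1. Eif2b2 (0.80), Iars (0.74), Eprs (0.51) and Ero1a (0.63) rose with calls lost in the model with these 2 groups alone and under that further threshold. Eif2ak2 (0.68) was lost in addition without Cd mouse 5 or Cd+Se mouse 14. Calls lost in several settings were those for Eif2b4 (without Cd mice 5 or 6 or Cd+Se mice 14 or 15, adjusted p up to 0.115), Gpt2, an alanine aminotransferase (Cd 5 or Cd+Se 15, up to 0.0818), and Atf6 (Cd 5 or 6 or Cd+Se 14, 15 or 16, up to 0.123). Those for Eif2ak1 and the stress-induced factor Atf3 were lost without any 1 of 12 and of 10 mice (up to 0.0970 and 0.107). Slc1a5 was the 1 gene of the 64 called in Cd+Se against control (log2 fold change 1.25, limma adjusted p = 0.0340), with levels of 3.5 to 6.09 TPM in Cd+Se mice and 0.75 to 1.81 TPM in control mice. This call was lost without any 1 of 8 mice, which were the 4 control mice, Cd mouse 1 and Cd+Se mice 13, 15 and 16 (adjusted p up to 0.120). In the interaction and in Se against control 0 of the 64 passed the limma test, and 18 and 8 had an unadjusted p under 0.05. The share of all genes tested with such a p is not given here, so these counts are no result about the pathway.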

How the data were processed

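Liver RNA of 16 mice in 4 groups of 4 was compared. The authors deposited TPM for 57010 genes, with each library scaled to the same sum. The submitters' notes name fastp, HISAT2 and StringTie without versions, and the build GRCh38, a human build, although the table lists mouse genes. The study states that a company made the libraries and ran the analysis. The sample titles name a pair of entries per mouse, and the table has 1 column per mouse. Depth is unknown, so precision rests on the mice. Whether the mice were kept in separate cages or processed in batches is not given in the sources used here.

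Genes that reached 1 TPM on average over the libraries (11766, all 10 genes among them, so that no exact test of low genes was needed) were compared as log2(TPM + 1) in limma 3.58.1 (R 4.3.3), with 1 mean per group over 16 libraries (12 residual degrees of freedom), eBayes with a trend and Benjamini-Hochberg adjustment over all genes tested at 0.05. Fold changes on this scale understate those of low genes. Counts of genes with an unadjusted p under 0.05 are descriptions, since the share of all genes at that threshold is not given here. The steps were tested on simulated data. Transcript lengths, GC content (98.3% of the genes tested) and gene positions are from GENCODE M21 (GRCm38), and promoter windows from RefSeq (GRCm38.p6), in which all 10 genes had a window.

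The 10 genes, the pathway lists and the marker lists were chosen with earlier results of these data known. Beside the 10 genes, the text names Mt1 and Mt2, up to 3 genes per list with the largest change past the threshold in Cd against control, Cd+Se against Cd and Cd+Se against control, up to 5 past it in the interaction, and the 5 protein-coding genes most like Atf4. Eif2s1 is among them by its change in Cd+Se against Cd. Alternatives were a pseudocount of 0.1, no filter, a mean of at least 5 TPM, quantile normalization, centring on the library median, rescaling over protein-coding nuclear genes without the 20 highest, a fit on the compared groups alone, eBayes with the trend off, a further threshold of 1 on the log2 fold change, and leaving out each mouse. A loess correction for length and GC content (span 0.5) and leaving out Se mice 40 and 44 were added after seeing the data.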

Additional observations from a re-analysis of the deposited data

Results flagged for a closer look

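In 128 groups of 4 mice (the 10 genes and the pathway genes named, in each of 4 groups), 6 had 1 mouse whose gap to its nearest neighbour took up more of the group's range than Dixon's 95% critical value. Chance gives about 1 in 20, or 6.4 of 128, so the number of such groups is no result. Among the 10 genes this was Fgf21 in the Se group, where mouse 40 was at 133.32 TPM and the others at 3.19 to 14.60 TPM (ratio 0.912). In Cd mouse 5, Eif2ak1 was at 6.26 TPM with the others at 9.21 to 9.71 TPM (0.855), and Xbp1 was at 71.15 TPM with the others at 99.46 to 104.15 TPM (0.858). Cars was at 28.64 TPM in Cd+Se mouse 16 with the others at 13.49 to 15.50 TPM (0.867). Bbc3 was at 0.95 TPM in Se mouse 44 with the others at 1.73 to 1.83 TPM (0.886). Eif2s1 was at 13.45 TPM in control mouse 30 with the others at 18.02 to 18.60 TPM (0.887).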

How the results depend on the processing

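The 4 calls among the 10 genes kept their direction in each of the 107 values of other settings, and 14 of these did not pass the threshold. In Cd against control the 10 genes held 3 calls, which became 5 with quantile normalization, centring, the length and GC correction or Se mice 40 and 44 left out, 6 with only the groups compared and 1 when a log2 fold change of at least 1 was also asked. Leaving out 1 mouse gave 2 to 4. The share of all genes called higher also grew, from 5.82% to 14.5% with quantile normalization, 19.2% with centring and 14.4% with the length and GC correction. This share is not given for the other settings, so the counts are no result about the 10 genes alone. In Cd+Se against Cd the 1 call became 2 with quantile normalization or centring and 0 with no filter, only the groups compared or a log2 fold change of at least 1, and leaving out 1 mouse gave 0 to 2. Under centring the share of all genes called lower in this comparison grew from 2.35% to 10.8%. In Cd+Se against Se leaving out 1 mouse gave 0 or 1. In the interaction the 0 calls became 1 with a mean of at least 5 TPM, quantile normalization, centring, the rescaling and the length and GC correction. The shares of all genes called in these settings of the interaction are not given here.

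No called value of the 10 genes reversed, while 16 of the 56 values that were not called did so in some setting. For these, the log2 fold change is given as the setting left it. Sesn2 in Cd+Se against Cd was -0.13 with quantile normalization, -0.12 with centring and -0.13 with the length and GC correction, and Fgf21 was -0.0016 with quantile normalization. With Se mice 40 and 44 left out, the values in Se against control were -0.067 for Atf5, -0.022 for Chac1 and -0.25 for Slc3a2. Those in Cd+Se against Se were 0.41 for Atf5, 0.33 for Ddit3, 0.53 for Chac1 and 0.059 for Fgf21, and the interaction of Chac1 was 0.40. Chac1 in Cd+Se against Se was also 0.0013 with a pseudocount of 0.1, 0.025 with centring and 0.012 with the length and GC correction, under which the interaction of Sesn2 was -0.0062. Leaving out 1 mouse at a time spanned 0 for further values. It gave -0.029 to 0.21 for Sesn2 and -0.21 to 0.64 for Fgf21 in Cd+Se against Cd. For Slc3a2 it gave -0.031 to 0.23 in Cd+Se against control, -0.022 to 0.28 in Se against control and -0.14 to 0.16 in Cd+Se against Se. Within Cd+Se against Se it gave -0.086 to 0.17 for Atf4, -0.37 to 0.064 for Atf5, -0.28 to 0.070 for Ddit3, -0.25 to 0.19 for Chac1 and -0.17 to 1.18 for Ddit4. In the interaction it gave -0.38 to 0.066 for Chac1 and -0.89 to 0.46 for Ddit4. The cause of these turns was not tested.

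The 30 calls among the pathway genes named kept their direction in each of 805 values of other settings, and 143 of these missed the threshold. No paired analysis was possible because the mice of the 4 groups carry different numbers. TPM keep no depth, so how far depth limits the low genes (Trib3, Asns, Chac1 and Sesn2) is unknown.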
